A study of Mus musculus with 6 samples.

Results

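The LIN28, HMGA2 and IGF2BP genes form a fetal RNA-binding and chromatin program. Its 7 members, Lin28a, Lin28b, Hmga2, Igf2bp1, Igf2bp2, Igf2bp3 and Arid3a, were chosen by gene symbol in the deposited count table, with earlier results of these libraries known. The values that selected them were those of the same 6 libraries: presence in a table already restricted to expressed genes, and results seen earlier. The values given for them, p-values included, are therefore descriptions. All 7 were present among 12579 genes, and all 7 passed the filter on low counts, with no library of any member under 4.45 CPM (counts scaled to the depth of the library). Total RNA came from mouse fetal livers at E14.5, from cells labelled as haematopoietic stem and progenitor cells. The 3 Prl2-/- libraries lack Prl2, a protein tyrosine phosphatase gene listed as Ptp4a2, and the 3 Prl2+/+ libraries carry it intact. The study is about gene transcription governed by the receptor FLT3 when PRL2 is missing. Neither the strain nor the design of the mutant allele was given in the sources used here. Nothing in the labels ties a library to its own embryo, and p-values then reflect library-to-library spread alone, which may be technical.

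LIN28A and LIN28B are RNA-binding proteins that block maturation of the let-7 microRNAs. LIN28A binds the let-7 precursor and recruits terminal uridylyltransferases, which mark it for decay by the exonuclease DIS3L2. Low let-7 in turn spares its target messages, among them those of the chromatin protein HMGA2, the messenger RNA-stabilising IGF2BP proteins and LIN28B itself. In the mouse fetal liver this axis is known for sustaining stem cell self-renewal through HMGA2 and for fetal-type B lymphopoiesis through ARID3A, a transcription factor.

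The let-7 sequences are shown because they define what the 7 genes share. In the RefSeq miRNA table (GRCm38.p6), 9 mature let-7 and miR-98 5p names matched, from 11 loci, and all 9 had the seed GAGGUAG at bases 2 to 8. Of these, 4 are given 5′ to 3′ with the seed in capitals.
mmu-let-7a-5p: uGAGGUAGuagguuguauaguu
mmu-let-7d-5p: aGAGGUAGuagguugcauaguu
mmu-let-7g-5p: uGAGGUAGuaguuuguacaguu
mmu-miR-98-5p: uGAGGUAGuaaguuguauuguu

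The match to this seed, CTACCTC, was searched on the sense strand of the longest 3′ UTR of each gene in GENCODE M21 (GRCm38). It occurred in the 3′ UTR of all 7 genes, at 18 places in all, against 8.96% of 20979 genes with an annotated 3′ UTR. The 3′ UTRs of the 7 genes were long, at 1784 to 6337 bases, against a median of 954 over all those genes. A match was held by 12.1% to 33.8% of genes of like length (within 20%), depending on the member. Lin28b, Hmga2 and Igf2bp1 each held 4 matches. Among genes whose 3′ UTR was within 20% of the same length, at least as many were found in 0.238% for Lin28b, 0.135% for Hmga2 and 0.356% for Igf2bp1. Lin28a and Arid3a each held 2 matches, a number reached by 2.12% and 2.28% of genes of like length. Igf2bp2 and Igf2bp3 held 1 each, and 1 or more were found in 12.1% and 13.3% of genes of like length. The members are genes known as let-7 targets, so these shares describe the choice. A match is not evidence of binding, and the microRNAs themselves were not measured.

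For each gene the first match followed by A is given, 5′ to 3′ on the transcript, with the 7 matching bases in capitals. Its position is on GRCm38, and all lie on the minus strand except that of Arid3a.
Lin28a (chr4:134005189-134005218): ttggagtgcacagcctgttgaaCTACCTCa
Lin28b (chr10:45381022-45381051): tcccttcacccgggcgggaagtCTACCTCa
Hmga2 (chr10:120364224-120364253): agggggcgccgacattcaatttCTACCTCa
Igf2bp1 (chr11:95961778-95961807): aggcagtgctgtgcgaagtaaaCTACCTCa
Igf2bp2 (chr16:22059473-22059502): gagaaaaacacacaaataaaagCTACCTCa
Igf2bp3 (chr6:49086787-49086816): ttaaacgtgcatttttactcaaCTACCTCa
Arid3a (chr10:79953888-79953917): cacatgcaaggcaagtttctttCTACCTCa

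Libraries held 25965111 to 37026282 counts, and members had 159 to 5535 counts in a library, a counting error of 7.93% to 1.34%. Ptp4a2 had 44, 38 and 38 counts in Prl2-/- libraries, against 8088, 9906 and 8135 in Prl2+/+ libraries, so every library matched its label. Of the 9 stem and progenitor markers all were measured, with a summed level of 828 to 901 CPM in Prl2-/- and 742 to 874 CPM in Prl2+/+ libraries. Granulocyte-monocyte progenitor markers summed to 14800 to 17700 CPM in Prl2-/- and 12500 to 16200 CPM in Prl2+/+ libraries. The 12 hepatoblast markers, led by albumin, summed to 75.2, 2520 and 331 CPM in Prl2-/- replicates 1 to 3 and 4330, 879 and 160 CPM in Prl2+/+ replicates 1 to 3, and 1 of the 12 was at 0 in a library. The 10 B lineage markers summed to 420, 72.5 and 193 CPM in Prl2-/- and 109, 130 and 335 CPM in Prl2+/+ libraries, and none was at 0. The 10 erythroid markers summed to 544, 1410 and 656 CPM in Prl2-/- and 791, 1080 and 567 CPM in Prl2+/+ libraries. In such bulk samples, fewer cells of a type and less RNA per cell cannot be told apart.

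Of the 7 genes 1, Lin28a, separated the genotypes, standing lower in every Prl2-/- library. The libraries of the genotypes did not overlap in 11.1% of all tested genes, so 1 of 7 is near the background. Lin28b and Hmga2 averaged slightly lower in Prl2-/- cells with overlapping libraries. Igf2bp1 and Igf2bp2 varied most, within each genotype as much as between them. Igf2bp3 and Arid3a were nearly constant across all 6 libraries. No member passed the edgeR quasi-likelihood test at a Benjamini-Hochberg adjusted p of 0.05, a threshold that 0.0398% of 12576 tested genes passed. By limma-voom, which called 0.0318% of all genes, and by edgeR's likelihood ratio test, which called 0.167%, 0 of 7 passed. By DESeq2, which called 0.286% of 12572 genes with an adjusted p, 1 did, Lin28a. At an unadjusted p under 0.05 there were 2, Lin28a and Hmga2, against 4.6% of all genes. Estimates were above 0 for 1 member and below 0 for 6, with a median log2 fold change of -0.34, beside -0.00067 over all genes, of which 50.2% were below 0. Those of Igf2bp3 and Arid3a were near 0 and changed sign in some other fits. Among marker lists, all 12 hepatoblast markers (median -1.22) and all 3 measured stromal markers (-0.696) were below 0. Above 0 were 9 of 10 B lineage markers (median 0.267), 7 of 7 megakaryocyte (0.278) and 6 of 7 granulocyte-monocyte progenitor markers (0.21). So were 7 of 9 stem and progenitor (0.107), 6 of 9 macrophage (0.0519) and 2 of 3 measured endothelial markers (0.0457). Erythroid markers split 5 and 5 (0.0118). The part of cell content in the members' estimates was not tested.

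**Figure D1:**
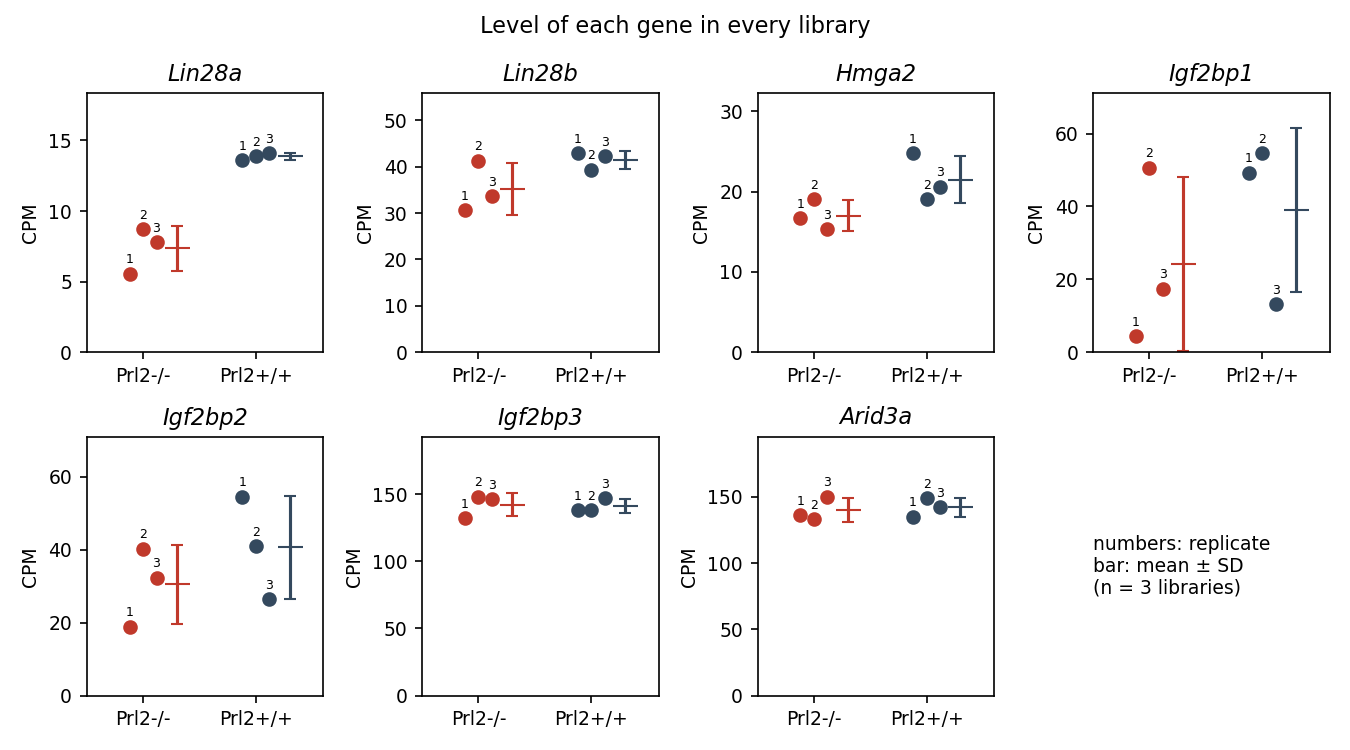
Level of the 7 genes in CPM (vertical axes, linear from 0) in each Prl2-/- library (red) and each Prl2+/+ library (dark blue); numbers are replicates, bars the mean ± SD of 3 libraries. Lin28a spans 5.57 to 8.70 CPM in Prl2-/- and 13.6 to 14.1 CPM in Prl2+/+ libraries, while the libraries of the other 6 genes overlap.

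Lin28a, the LIN28 paralogue that acts mainly in the cytoplasm, lies on the minus strand of chromosome 4 (134003330 to 134018816, GRCm38). Its counts were 199, 259 and 288 in the Prl2-/- libraries, in replicate order, against 358, 464 and 365 in the Prl2+/+ libraries. Scaled for depth, these were 5.57, 8.70 and 7.79 CPM in Prl2-/- against 13.6, 13.9 and 14.1 CPM in Prl2+/+ libraries. The Prl2-/- libraries, at 7.35 ± 1.61 CPM (SD, n = 3), were all lower. Their order was that of their hepatoblast and erythroid levels and the reverse of that of their B lineage levels. The Prl2+/+ libraries, at 13.9 ± 0.266 CPM (SD, n = 3), were close together, and their hepatoblast levels differed widely. The part of cell content in these levels was not tested. On the log2 scale the difference was -0.92 ± 0.181 (SE; 95% confidence interval -1.35 to -0.49), which is 0.530 times the Prl2+/+ level. Its edgeR adjusted p was 0.858 over all genes, and its rank by unadjusted p (0.00164) was 24. The adjusted p was 0.00875 by DESeq2, 0.594 by limma-voom and 0.382 by edgeR's likelihood ratio test. Without each library in turn the value lay between -1.06 and -0.75. A fit with the hepatoblast level as covariate gave -0.87 ± 0.162, and one with the B lineage level gave -0.93 ± 0.151.

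The position of Lin28a sets it apart from the other members. Its lower end, the downstream end of a gene on the minus strand, lies 4.15 Mb distal of the end of Ptp4a2, the targeted gene. The same end of Lin28a lies 35.3 kb beyond the upper end of Hmgn2, with Dhdds in between. For genes this close to the targeted locus, loss of PRL2 and any difference between the chromosomes that carry the 2 alleles cannot be told apart. Hmgn2, which encodes a nucleosome-binding protein, was the only one of 10 neighbours, 5 on each side, to pass the edgeR test, and it fell: 379, 395 and 443 CPM in Prl2-/- libraries stood against 1270, 1250 and 1120 CPM in Prl2+/+ libraries (log2 fold change -1.58 ± 0.083, edgeR adjusted p = 0.00186). Its counts may include reads of processed copies elsewhere in the genome.

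Dhdds, which encodes a subunit of the dolichol-forming prenyltransferase, had 93.2, 87.7 and 87.2 CPM in Prl2-/- and 69.4, 78.8 and 78.5 CPM in Prl2+/+ libraries, a log2 fold change of 0.24 ± 0.072. The gene between the pair of lower genes thus had higher values in every Prl2-/- library. On the far side of Lin28a, Ubxn11 had 9.79, 8.23 and 9.01 CPM in Prl2-/- and 3.95, 4.29 and 5.18 CPM in Prl2+/+ libraries, at 1.01 ± 0.169, and Aim1l, Cd52 and Cep85 were at 0.88 ± 0.241, 0.38 ± 0.132 and 0.52 ± 0.078. Sh3bgrl3 was at -0.30 ± 0.086 on that side. Towards Ptp4a2, Pigv, Arid1a and Rps6ka1 were at 0.24 ± 0.091, 0.16 ± 0.110 and -0.07 ± 0.072. Of these 10 genes, spread over 526 kb, the genotypes did not overlap in 8 (background 11.1%), and 7 estimates were above 0 and 3 below. The edgeR adjusted p of the 9 that did not pass was 0.355 to 0.899. The neighbourhood was examined because called genes were already known to lie there, so these values are a description.

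**Figure D2:**
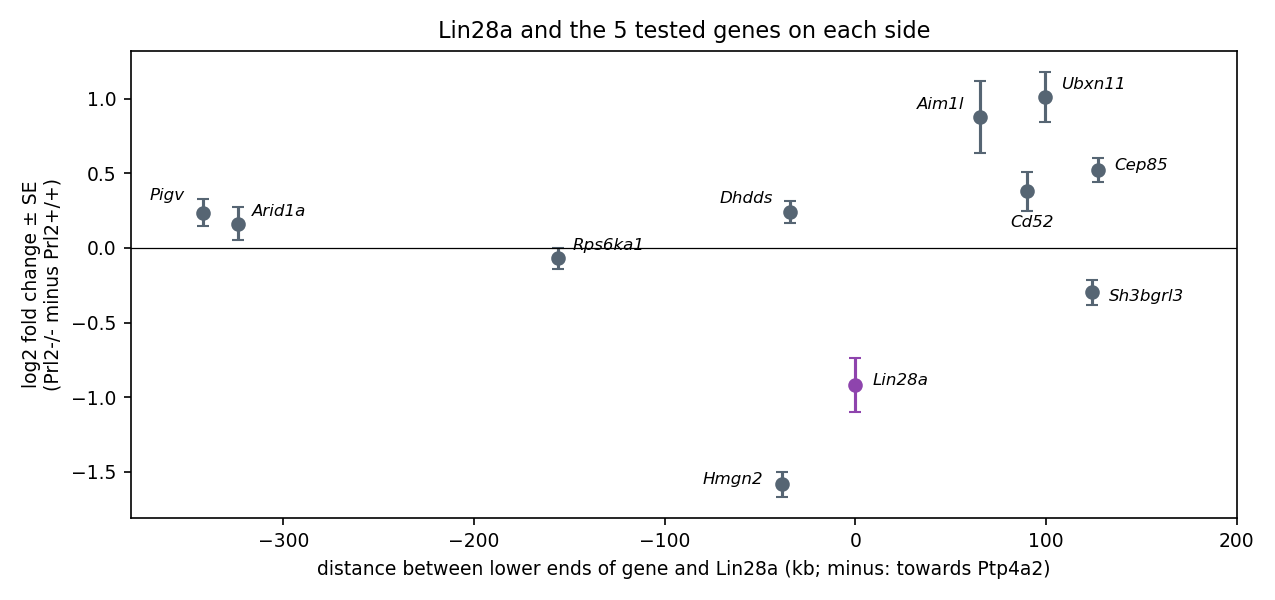
Log2 fold change (Prl2-/- minus Prl2+/+, vertical axis, bars ± SE) of Lin28a (purple) and its 5 nearest tested genes on each side (grey), by distance in kb from Lin28a (horizontal axis). Lin28a at -0.92 and Hmgn2 at -1.58 stand below 0, with Dhdds between them at 0.24.

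Lin28b, the LIN28 paralogue best known from fetal haematopoiesis, lies on chromosome 10 (45376619 to 45470201, minus strand). It had 30.6, 41.3 and 33.6 CPM in Prl2-/- and 42.9, 39.3 and 42.2 CPM in Prl2+/+ libraries. Prl2-/- replicate 2 lay within the Prl2+/+ range and the other Prl2-/- libraries below it. The log2 fold change was -0.24 ± 0.117 (SE; 95% confidence interval -0.52 to 0.04; edgeR adjusted p = 0.899). It was -0.15 without Prl2-/- replicate 1 and -0.37 without Prl2-/- replicate 2.

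Per kb of exon, the scale on which genes can be compared, Lin28b was at 6.51 in Prl2-/- and 7.67 in Prl2+/+ cells (mean CPM per kb), above Lin28a at 2.11 and 3.99. Lin28a made up 22%, 24.6% and 26.5% of the LIN28 level per length in Prl2-/- replicates 1 to 3, against 33%, 35.5% and 34.2% in Prl2+/+ replicates 1 to 3. Lin28b was thus the more abundant paralogue in all 6 libraries, and the Lin28a share was smaller in each Prl2-/- library than in any Prl2+/+ library. The share follows from the Lin28a values above and adds no separate measurement.

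**Figure D3:**
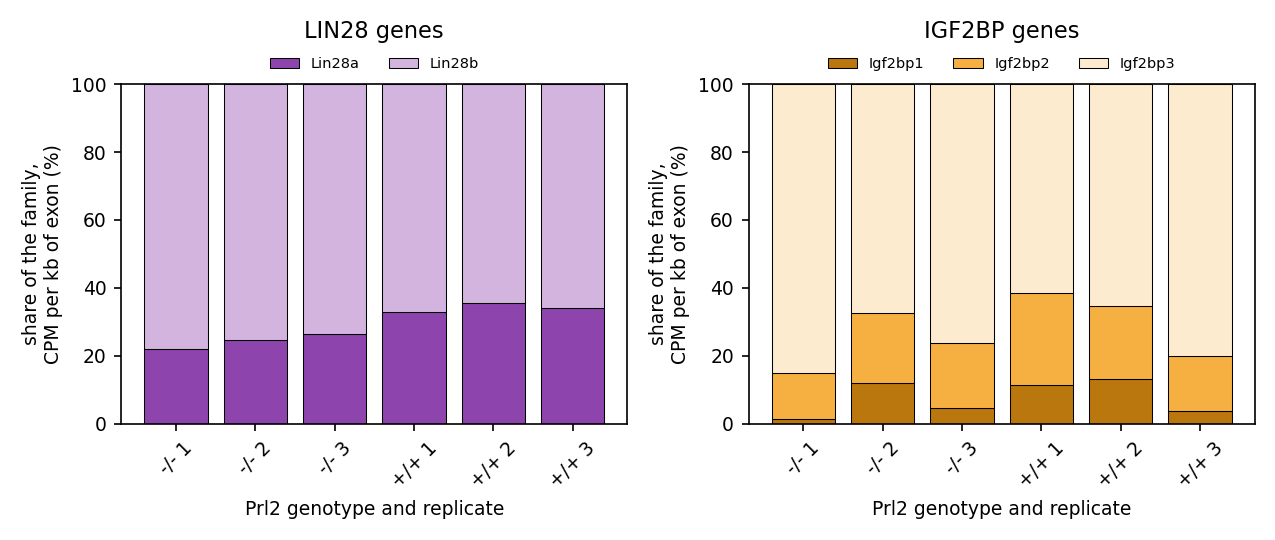
Share of each paralogue in its family's level per kb of exon (vertical axis, %) in each library (horizontal axis). Lin28a makes up 22% to 26.5% of the LIN28 level in Prl2-/- and 33% to 35.5% in Prl2+/+ libraries, and Igf2bp3 makes up 67.5% to 84.9% and 61.5% to 80.2% of the IGF2BP level.

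Hmga2 encodes a chromatin protein with AT-hook motifs that bends DNA and is a classical let-7 target. It lies on chromosome 10 (120361275 to 120476935, minus strand). Its libraries stood at 16.7, 19.1 and 15.3 CPM in Prl2-/- and 24.8, 19.1 and 20.6 CPM in Prl2+/+ cells. Prl2-/- replicate 2 and Prl2+/+ replicate 2 were level, and the remaining Prl2-/- libraries were lower than any Prl2+/+ library. The log2 fold change was -0.34 ± 0.136 (SE; 95% confidence interval -0.66 to -0.01; edgeR adjusted p = 0.899; DESeq2 adjusted p = 0.997). Without Prl2+/+ replicate 1 it was -0.22. Hmga2-ps1, a pseudogene copy that was also counted, was named after its values were seen. It had 10.2, 11.8 and 12.3 CPM in Prl2-/- and 12.2, 12.3 and 11.8 CPM in Prl2+/+ libraries. Reads may have been divided between the pair, and the level of Hmga2 is uncertain to that extent.

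Arid3a encodes a DNA-binding protein with an AT-rich interaction domain, known in B cells as Bright. It had 136, 133 and 150 CPM in Prl2-/- and 135, 149 and 142 CPM in Prl2+/+ libraries. The lowest and the highest library were both Prl2-/-, and the highest was 1.13 times the lowest. The difference was -0.03 ± 0.070 on the log2 scale (SE; 95% confidence interval -0.19 to 0.14; edgeR adjusted p = 0.944). B lineage content differed between these libraries, and no relation of Arid3a to it was detectable (Pearson r = 0.186, Spearman rho = 0.486, exact permutation p of 0.696 and 0.356, n = 6; adjusted over 21 relations, 0.769 and 0.629).

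Igf2bp3 was the most abundant member per length, and Igf2bp1 spread the most between libraries. The 3 IGF2BP proteins bind messenger RNAs through RNA-recognition and KH domains and protect them from decay. Igf2bp3 (chromosome 6, 49085218 to 49214954, minus strand) had 132, 148 and 146 CPM in Prl2-/- and 138, 138 and 147 CPM in Prl2+/+ libraries. The highest library was 1.12 times the lowest, and the Prl2-/- libraries spanned the Prl2+/+ range. The difference was 0.01 ± 0.066 on the log2 scale (SE; 95% confidence interval -0.15 to 0.16; edgeR adjusted p = 0.985).

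Igf2bp1 (chromosome 11, 95957164 to 96005944, minus strand) had counts of 159, 1508 and 644 in Prl2-/- and 1299, 1817 and 341 in Prl2+/+ libraries. In CPM these were 4.45, 50.6 and 17.4 in Prl2-/- against 49.3, 54.6 and 13.2 in Prl2+/+ libraries. Prl2-/- replicate 1 was lowest, Prl2+/+ replicate 2 stood at 12.3 times that level, and Prl2-/- replicate 2 stood beside the higher Prl2+/+ libraries. The log2 fold change of -0.70 had an SE of 0.859 (95% confidence interval -2.75 to 1.35; edgeR adjusted p = 0.904). Without each library in turn it lay between -1.84 (without Prl2-/- replicate 2) and -0.20 (without Prl2-/- replicate 1), with -0.37 without Prl2+/+ replicate 2 and -1.11 without Prl2+/+ replicate 3.

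Igf2bp2 (chromosome 16, 22059009 to 22163299, minus strand), itself known as an HMGA2-activated gene, had 18.9, 40.3 and 32.3 CPM in Prl2-/- and 54.5, 40.9 and 26.4 CPM in Prl2+/+ libraries. The genotypes overlapped, with Prl2-/- replicate 1 lowest and Prl2+/+ replicate 1 highest. Its log2 fold change was -0.41 ± 0.339 (SE; 95% confidence interval -1.22 to 0.40; edgeR adjusted p = 0.899). It was nearer to 0 without Prl2-/- replicate 1 (-0.16) or Prl2+/+ replicate 1 (-0.14), and farther from it without Prl2-/- replicate 2 (-0.67) or Prl2+/+ replicate 3 (-0.65).

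Igf2bp1 and Igf2bp2 varied alongside markers of other cells, though no relation passed adjustment. Both had their 3 lowest values in Prl2-/- replicates 1 and 3 and Prl2+/+ replicate 3, the libraries with the lowest hepatoblast and the highest B lineage levels. Across the 6 libraries the log2 CPM of Igf2bp2 and the mean log2 CPM of hepatoblast markers had a Pearson r of 0.966 and a Spearman rho of 0.943 (exact permutation p of 0.00556 and 0.0167, n = 6). For Igf2bp1 the Pearson r was 0.923 and Spearman rho 0.771 (exact permutation p of 0.0167 and 0.103, n = 6). With B lineage markers r was -0.924 for Igf2bp1 and -0.861 for Igf2bp2, and rho was -0.829 for both (exact permutation p of 0.0111 and 0.0306 for r and 0.0583 for each rho, n = 6). With erythroid markers r was 0.870 for Igf2bp1 and 0.733 for Igf2bp2, and rho was 0.943 and 0.771 (exact permutation p of 0.0222 and 0.0903 for r and 0.0167 and 0.103 for rho, n = 6).

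These 6 relations are among 21, of 7 genes with 3 marker lists, and none passed adjustment over the 21: the smallest Benjamini-Hochberg value was 0.117 for r and 0.175 for rho by exact permutation. Without the 2 libraries farthest from the median marker level, r was 0.929 and 0.926 with hepatoblast, -0.945 and -0.932 with B lineage and 0.892 and 0.690 with erythroid markers, for Igf2bp1 and Igf2bp2 in that order. For the other 5 genes the hepatoblast r was -0.269 to 0.704, and that of Lin28b (0.704) was 0.205 without the 2 farthest libraries. With B lineage and erythroid markers, Igf2bp3 had r of -0.364 and 0.297 over all 6 libraries, and 0.936 and -0.831 without the 2 farthest. An r over so few libraries can thus be large, of either sign, for a nearly constant gene, and says little about stability. The 3 marker lists rise and fall together or inversely in these libraries, so their parts cannot be told apart, and their part in the differences between genotypes was not tested.

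**Figure D4:**
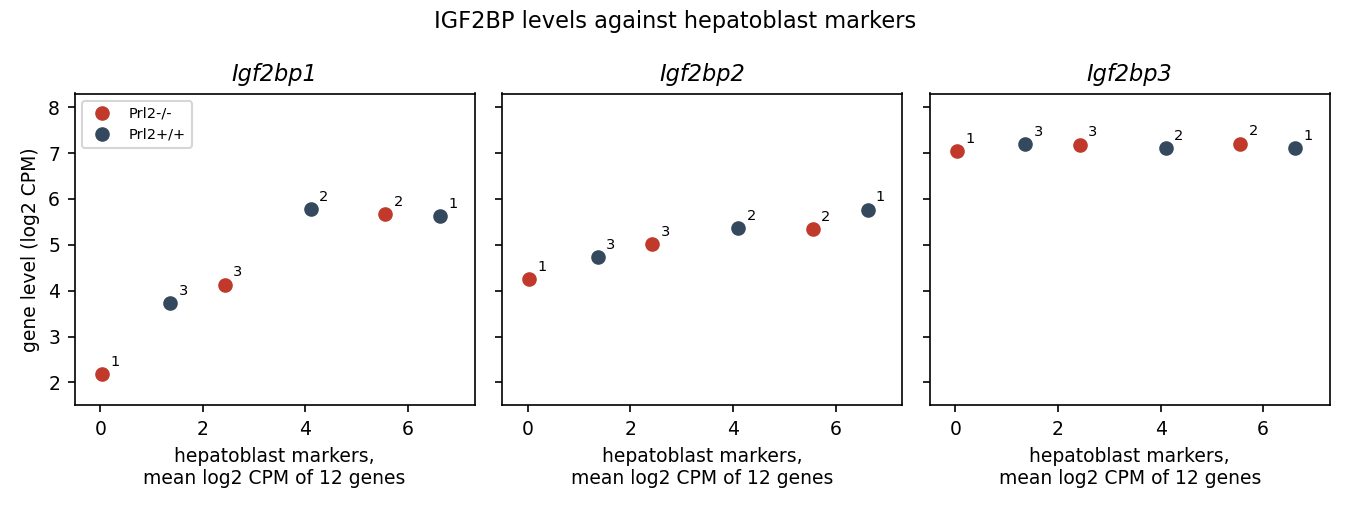
Level of Igf2bp1, Igf2bp2 and Igf2bp3 (vertical axis, log2 CPM) against the mean log2 CPM of 12 hepatoblast markers (horizontal axis) in Prl2-/- (red) and Prl2+/+ (dark blue) libraries, numbered by replicate. Igf2bp1 (r = 0.923) and Igf2bp2 (r = 0.966) are higher where hepatoblast markers are higher, and Igf2bp3 (r = 0.219) stays level; none of these relations passed adjustment.

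Estimates for both genes were also taken with a marker level in the fit. Each such fit adds a coefficient to only 6 libraries, and the marker levels varied with both genes in those same libraries. A small SE from such a fit therefore does not mean a precise genotype difference. With hepatoblast markers as covariate, the log2 fold change of Igf2bp2 was -0.15 ± 0.110 (SE; edgeR adjusted p = 0.965) and that of Igf2bp1 -0.42 ± 0.354 (edgeR adjusted p = 0.969). With the B lineage level as a covariate, Igf2bp1 was at -0.94 ± 0.152 and Igf2bp2 at -0.39 ± 0.140 (edgeR adjusted p of 0.220 and 0.595). The estimates for Igf2bp1 thus ranged with the covariate, each stayed below 0 and none passed.

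**Figure D5:**
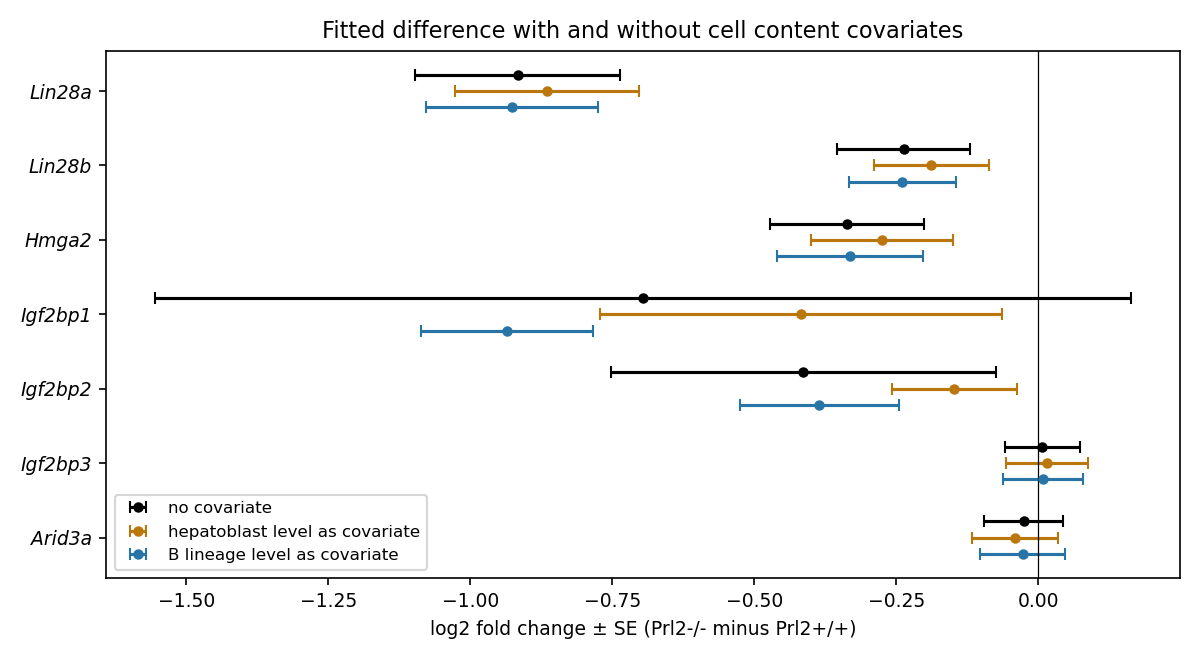
Log2 fold change (Prl2-/- minus Prl2+/+, horizontal axis, bars ± SE) of the 7 genes with no covariate (black), the hepatoblast level (brown) or the B lineage level (blue) as a covariate. Igf2bp1 has an SE of 0.859 with no covariate, 0.354 with the hepatoblast level and 0.152 with the B lineage level. With only 6 libraries, the smaller SE does not mean a more precise genotype difference. Igf2bp3 and Arid3a stay near 0 in all 3 fits.

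Per kb of exon, Igf2bp3 and Arid3a stood well above the other 5 members. Igf2bp3 was at 32.6 in Prl2-/- and 32.4 in Prl2+/+ cells (mean CPM per kb), and Arid3a was at 25.7 and 26.2. Igf2bp2 followed at 7.82 and 10.4, Lin28b at 6.51 and 7.67, Hmga2 at 4.08 and 5.15, Igf2bp1 at 2.88 and 4.66 and Lin28a at 2.11 and 3.99. Igf2bp3 exceeded Arid3a in every library, and both exceeded the other 5 genes in every library. From Igf2bp2 down, the levels of neighbours in this order overlapped between libraries. Of the IGF2BP level per length, Igf2bp1 made up 1.49%, 12% and 4.74% in Prl2-/- and 11.4%, 13.3% and 3.73% in Prl2+/+ libraries, and Igf2bp3 84.9%, 67.5% and 76.4% in Prl2-/- and 61.5%, 65.2% and 80.2% in Prl2+/+ libraries.

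The machinery around the members was examined in 6 lists with 79 measured genes besides the members. None passed in edgeR (0.0398% of all genes) or limma-voom (0.0318%). Of the 79, 3 had an unadjusted edgeR p under 0.05, a share no higher than the 4.6% of all genes. DESeq2 and the likelihood ratio test of edgeR, which called 0.286% and 0.167% of all genes, each called 1, Dhx9. In the list of let-7 processing and decay, 18 genes were measured, with 7 estimates above 0 and 11 below and a median of -0.03. Its smallest p belonged to Dicer1, the nuclease that cuts let-7 precursors, with 71.1, 65.2 and 69.5 CPM in Prl2-/- and 71.0, 78.7 and 75.5 CPM in Prl2+/+ libraries (log2 fold change -0.13 ± 0.067). Zcchc6, the uridylyltransferase TUT7 that LIN28A recruits, was at -0.19 ± 0.103. Dis3l2, the exonuclease that removes the tailed precursor, was at 0.11 ± 0.068 (edgeR adjusted p = 0.899 for all 3 genes).

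Among 26 other let-7 targets, 12 estimates were above 0 and 14 below, with a median of -0.01. Arid3b, a relative of Arid3a and a let-7 target, had 39.9, 44.2 and 41.2 CPM in Prl2-/- and 47.4, 52.8 and 46.4 CPM in Prl2+/+ libraries, a log2 fold change of -0.23 ± 0.077. It was lower in every Prl2-/- library than in any Prl2+/+ library, and 11.1% of all genes were separated in one direction or the other. Igf1r, the growth factor receptor, was at 0.18 ± 0.107 (edgeR adjusted p = 0.899 for both). Of 8 measured ARID3A and HMGA relatives and partners, 5 estimates were above 0 and 3 below, with a median of 0.08. Btk and Gtf2i, whose kinase and transcription factor products partner ARID3A in B cells, were at -0.15 ± 0.065 and 0.19 ± 0.087 (edgeR adjusted p = 0.899 for both).

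The IGF2BP ribonucleoprotein partners held the gene with the smallest p of the 6 lists. Dhx9, an RNA helicase found with IGF2BP1 on the coding-region stability complex of Myc messages, had 1201, 1056 and 1282 counts in Prl2-/- and 1329, 1722 and 1248 in Prl2+/+ libraries. These were 33.6, 35.5 and 34.7 CPM in Prl2-/- against 50.4, 51.7 and 48.2 CPM in Prl2+/+ libraries, without overlap, and a log2 fold change of -0.54 ± 0.060 (SE). Its adjusted p was 0.107 with edgeR, 1.66e-06 by DESeq2 and 0.00387 by edgeR's likelihood ratio test. Of the 10 partners 5 estimates were above 0 and 5 below, with a median of -0.01; Pabpc1 and Fmr1 were at 0.18 ± 0.097 and -0.19 ± 0.104.

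The transcripts that IGF2BP proteins bind showed no common direction. Of 10 measured clients, 4 estimates were above 0 and 6 below, with a median of -0.01. Myc, the oncogene whose message IGF2BP1 stabilises, had 381, 297 and 308 CPM in Prl2-/- and 272, 296 and 315 CPM in Prl2+/+ libraries (0.16 ± 0.108), Cdk6 was at 0.24 ± 0.163 and Actb at -0.10 ± 0.068 (edgeR adjusted p = 0.899 for all 3 genes). The imprinted genes Igf2, a growth factor gene whose message IGF2BP proteins bind, and H19, a long noncoding RNA, were singled out after their values were seen. Igf2 had 4, 137 and 12 counts in Prl2-/- and 298, 50 and 2 in Prl2+/+ libraries, and H19 had 44, 206 and 47 counts in Prl2-/- and 467, 117 and 23 in Prl2+/+ libraries. Both were highest in Prl2+/+ replicate 1 and next highest in Prl2-/- replicate 2, the libraries with the most hepatoblast markers.

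Genes of the fetal and adult stages of blood formation, pooled in the same list, had 8 of 16 measured estimates above 0 and 8 below. Their median was 0.01. Fetal-stage and adult-stage genes were not counted apart, so these counts cannot show whether there was a shift between stages. Nfix, a transcription factor, Zbtb7a, a repressor of fetal globin in humans, and Plag1 were at 0.40 ± 0.258, 0.10 ± 0.075 and -0.41 ± 0.317 (edgeR adjusted p = 0.899 for all 3 genes). Trim71, a let-7 target and LIN28 partner named after its values were seen, had 0, 30 and 2 counts in Prl2-/- and 58, 29 and 0 in Prl2+/+ libraries. It was detected above a few counts only in 3 libraries, of which 1 was Prl2-/- and 2 were Prl2+/+. These had the highest hepatoblast and erythroid and the lowest B lineage levels, which cannot be told apart here.

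The genes whose profile over the 6 libraries was most like each member were sought among 10075 other genes of at least 2 mean log2 CPM, by Pearson r of log2 CPM. With so few libraries many genes match closely, so r is given as a description with no p. For Lin28a the 3 closest were Tnks2 (r = 0.996), Nupl1 (0.991) and Osbpl8 (0.986), and 27 genes had r above 0.95. Igf2bp2 had the most such genes, 90, led by Lipa (0.999), the lysosomal acid lipase gene, Ctnna1 (0.998) and Neo1 (0.991). Igf2bp1 had 61, led by Tprkb (0.994), Slc25a21 (0.991) and Trak2 (0.987). Lin28b was closest to Gtf2a1 (0.988), Slc25a13 (0.987) and Psme4 (0.984), and Hmga2 to Arhgap35 (0.996), Zfp97 (0.990) and Igbp1 (0.989). For the near-constant genes the closest were Gdi2 (0.992), Rps6kb1 (0.969) and Gbe1 (0.969) for Igf2bp3 and Brap (0.997), Ripk3 (0.986) and Myo1g (0.983) for Arid3a.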

How the data were processed

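The authors deposited raw counts per gene, per the file headers. Per the submitters' processing notes, reads were aligned with STAR and counted with featureCounts; the sources used here name no version and no genome build. Per the labels' protocols, cDNA was made from little RNA with a template-switching kit and libraries by tagmentation, which does not mark strand. The table held 12579 genes, each with a CPM of at least 0.2 in 3 or more libraries. Gene positions are those of the table; for all 7 members they overlapped the GENCODE M21 gene of the same symbol, mostly with other ends, and the build was taken as GRCm38 from this. Genes were filtered with filterByExpr (12576 left), TMM-scaled (factors 0.991 to 1.01) and tested with the edgeR 4.0.16 quasi-likelihood F test in R 4.3.3 over all 6 libraries without covariates, with Benjamini-Hochberg adjustment over all genes. CPM values use these factors. SE is the log2 fold change over the square root of F. log2 CPM used a prior count of 2. The workflow was tested on simulated data. No pair of libraries differed by less than a chi-square of 19.6 per gene, far above sampling noise, so none was a duplicate. Alternatives used DESeq2 1.42.0, limma-voom 3.58.1, the likelihood ratio test, other scalings and filters, covariates, a replicate block and left-out libraries. Members, lists and tests were chosen with earlier results of these data known. Genes named are the members, the 3 smallest p of each list (1 of these genes is not reported here), 5 neighbours on each side of Lin28a, the 3 most similar genes per member, and those said to be named after their values were seen.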

Additional observations from a re-analysis of the deposited data

How the results depend on the processing

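All 7 members kept their side of the threshold under the 16 alternatives, except Lin28a with DESeq2 (log2 fold change -0.92, called), where 1 member was called. Direction was kept by Lin28a, Lin28b, Hmga2, Igf2bp1 and Igf2bp2 under all 16. Igf2bp3 turned to -0.0404 without the 2 hepatoblast-rich libraries (Prl2-/- replicate 2 and Prl2+/+ replicate 1) and ranged from -0.025 to 0.0573 without each library in turn; Arid3a ranged from -0.0801 to 0.0076. The cause was not tested. Of the list genes, 1 was called with DESeq2 and 1 with the likelihood ratio test. Over all genes, 5 were called (2 higher and 3 lower in Prl2-/-). DESeq2 called 36 (12 and 24), the likelihood ratio test 21 (9 and 12), limma-voom 4 (1 higher), and the fit without the 2 hepatoblast-rich libraries 1 (0 higher, 1 lower). Leaving out 1 library gave 3 to 4 calls (0 to 1 higher), with 3 without Prl2-/- replicate 1 or 3 or Prl2+/+ replicate 1 or 2. The labels share only a replicate number: with the replicate block 1 gene was called (0 higher, 1 lower) and Lin28a was at -0.94. Deviations of same-numbered libraries correlated at -0.638, 0.209 and 0.174 for numbers 1 to 3, and the best match of Prl2-/- replicates 1 and 2 was another number.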
